A study of Homo sapiens with 8 samples.

Results

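STAT3 and 8 other genes of JAK-STAT signalling were followed in 2 human neuroblastoma cell lines after TRPM7 knockdown. Every probe of the array table whose gene symbol is STAT2, STAT3, STAT5B, STAT6, JAK1, JAK2, SOCS1, SOCS3 or IL6ST was taken, which gave 13 probes of 9 genes among 47322 probes, of which 44052 carry one of 31426 gene symbols. STAT3 has 3 probes, SOCS3 and IL6ST have 2 each, and the other 6 genes have 1 each.

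The cells were SH-SY5Y, of neuroblastic type, and SH-EP2, of epithelial-like type, which are subclones of one parental neuroblastoma line. Each line was transduced with a lentivirus that carries a TRPM7 shRNA, or a nonfunctional scrambled shRNA as control, and was then selected with puromycin. RNA of the 4 groups (SH-SY5Y control, SH-SY5Y TRPM7 shRNA, SH-EP2 control and SH-EP2 TRPM7 shRNA) was hybridized to Illumina HumanHT-12 v4 bead arrays with 2 arrays per group, 8 in all. TRPM7 is an ion channel fused to a protein kinase, and 1 shRNA against it was used on the arrays, so effects of its sequence on other transcripts cannot be told apart from effects of TRPM7 loss. The labels give 1 culture medium for both lines while the methods give different media, so a difference between lines is one of line and, possibly, medium. The methods say that samples were prepared and run in duplicate but not whether the 2 replicates of a group were separate cultures, so p-values measure the spread between these arrays, which may be technical.

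In JAK-STAT signalling a cytokine joins its receptor chains, the Janus kinases bound to those chains phosphorylate each other and the receptor, and STAT proteins dock there, are phosphorylated, pair up and enter the nucleus to switch on genes. IL6ST (gp130) is the shared signalling chain for the interleukin-6 family, JAK1 and JAK2 are kinases that act at it, STAT3 is its main transcription factor, and SOCS1 and SOCS3 are inhibitors that STATs themselves induce. Arrays measure transcript levels only, and phosphorylation, on which activity of the pathway depends, was not measured.

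All levels below are log2 normalized signals, a probe counts as detected on an array at a detection p under 0.05, and a difference is called at an adjusted p under 0.05 (limma, two-sided, Benjamini-Hochberg over all 47322 probes). Between 40.8% and 44.2% of the probes were detected per array, and the median raw signal lay between 104.7 and 119.9. The single TRPM7 probe (ILMN_1667047) was undetected throughout (detection p 0.0753 to 0.201), so the knockdown could not be checked on these arrays. The study itself measured TRPM7 mRNA in both lines by quantitative RT-PCR. In SH-EP2 cells it also used an independent TRPM7 shRNA for migration, which was not on the arrays. The lines differed in marker genes. The median level of 12 noradrenergic genes was 11.03 in SH-SY5Y control and 2.94 in SH-EP2 control cells, and that of 12 mesenchymal genes was 4.95 and 11.09. Exceptions were TH, undetected in both (1.97 in SH-SY5Y control), and VIM, not higher in SH-EP2 control cells (13.48 against 13.68). In such bulk samples fewer cells of a type and less RNA per cell cannot be told apart.

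The promoters of STAT3, the gene with the knockdown call in SH-SY5Y cells, and of SOCS1, the gene with the widest gap between the lines, are shown to give the sequence context of these 2 results. Each window runs from 250 bases before to 50 bases after the transcription start in the RefSeq annotation of GRCh38.p14, on the minus strand in both cases, 5′ to 3′. The capitals in the SOCS1 window mark a match to GAAANNGAAA, the core of an interferon-stimulated response element, at -113 to -104 from the start. STAT3 lies on chromosome 17 (chr17:42388393-42388692) and SOCS1 on chromosome 16 (chr16:11256155-11256454).
STAT3: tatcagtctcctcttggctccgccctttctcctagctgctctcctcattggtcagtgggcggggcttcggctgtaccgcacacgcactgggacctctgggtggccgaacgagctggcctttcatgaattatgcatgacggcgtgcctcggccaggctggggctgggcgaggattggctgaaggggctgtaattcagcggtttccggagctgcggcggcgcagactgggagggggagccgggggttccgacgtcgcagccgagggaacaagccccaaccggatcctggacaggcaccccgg
SOCS1: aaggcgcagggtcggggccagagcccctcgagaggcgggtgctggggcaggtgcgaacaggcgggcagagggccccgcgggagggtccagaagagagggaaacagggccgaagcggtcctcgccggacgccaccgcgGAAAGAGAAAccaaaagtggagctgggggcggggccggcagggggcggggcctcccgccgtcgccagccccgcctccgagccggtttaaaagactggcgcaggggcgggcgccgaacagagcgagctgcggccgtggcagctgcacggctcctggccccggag
STAT dimers bind TTCNNNGAA, with TTCNNNNGAA as the spacing that STAT6 prefers. Neither string was found in any of 15 windows of the 9 genes, on either strand, while 7.657% and 6.439% of 35116 RefSeq promoter windows of the same 300 bases hold them (13.46% hold either). The string GAAANNGAAA, searched on both strands after the SOCS1 window had been read, is held by 3.574% of those windows. A match is a string of letters and not a measured binding site, and the absence of one says only that the letters are not in the window.

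The receptor chain IL6ST was higher in SH-EP2 than in SH-SY5Y cells, and no change with TRPM7 shRNA was called. Its probe ILMN_1797861 read 5.35 and 4.90 in SH-EP2 control, 5.17 and 4.88 in SH-EP2 TRPM7 shRNA, 3.50 and 2.93 in SH-SY5Y control, and 3.12 and 3.32 in SH-SY5Y TRPM7 shRNA cells. The 4 SH-EP2 arrays all lay above the 4 SH-SY5Y arrays, and 1 of the SH-SY5Y control arrays (the value of 2.93) was not detected. Between control cells IL6ST was 3.77-fold higher in SH-EP2 cells (log2 difference 1.91, 95% interval 1.13 to 2.69, limma adjusted p = 3.81e-04). The call held under each other background correction, but the log2 difference fell to 0.97 with neqc, 0.45 with normexp and 0.30 with none. With TRPM7 shRNA the log2 difference was 0.01 in SH-SY5Y cells (interval -0.77 to 0.79) and -0.10 in SH-EP2 cells (interval -0.88 to 0.68), and changes of up to those bounds cannot be told from none. The second IL6ST probe (ILMN_1746604) was detected in no group, and averaging it with the first gave a line difference of 1.03 that was no longer called (limma adjusted p = 0.0642).

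JAK1, a kinase used by most cytokine receptors, had the smallest difference between the lines among the members detected in both. It read 7.62 and 7.79 in SH-EP2 control and 7.63 and 7.69 in SH-SY5Y control cells, with a log2 difference of 0.05 (interval -0.25 to 0.34, limma adjusted p = 0.878). The TRPM7 shRNA arrays were lower in both lines without overlap, at 7.28 and 7.42 in SH-EP2 and 7.39 and 7.31 in SH-SY5Y cells. Neither decrease was called: the log2 difference was -0.35 in SH-EP2 (SE 0.141, limma adjusted p = 0.259) and -0.31 in SH-SY5Y cells (SE 0.141, limma adjusted p = 0.402).

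JAK2, the kinase of growth factor and hormone receptors as well as of gp130, varied more between arrays of a group than between groups. It read 4.28 and 3.03 in SH-EP2 control, 4.74 and 3.72 in SH-EP2 TRPM7 shRNA, 2.62 and 4.17 in SH-SY5Y control, and 4.43 and 3.32 in SH-SY5Y TRPM7 shRNA cells. The values of 3.03 and 2.62 were not detected, all groups overlapped, and no difference was called. The intervals ran from -0.70 to 1.67 for TRPM7 shRNA in SH-SY5Y cells, from -0.61 to 1.76 in SH-EP2 cells and from -0.92 to 1.45 between the control lines.

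STAT3 was higher in SH-EP2 than in SH-SY5Y cells by all 3 probes. The brightest probe (ILMN_2401978) read 9.28 and 9.29 in SH-EP2 control against 7.66 and 7.94 in SH-SY5Y control cells. The probe ILMN_1663618 read 7.87 and 7.97 against 6.32 and 6.19, and ILMN_2410986 read 7.42 and 7.49 against 5.98 and 5.89. No array of one line overlapped the other, and the probes gave 2.81-, 3.17- and 2.87-fold, so their estimates of the line difference (1.49, 1.66 and 1.52 on the log2 scale) differed by less than their 95% intervals. All 3 were called (limma adjusted p = 5.38e-09, 1.14e-07 and 2.25e-06). They were also called with no background correction, where the log2 differences fell to 1.13, 0.90 and 0.73.

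With TRPM7 shRNA, STAT3 fell in SH-SY5Y cells by 1 of its 3 probes. In those cells ILMN_2410986 read 4.99 and 4.58, against 5.98 and 5.89 in control cells, a 2.21-fold decrease (log2 difference -1.14, SE 0.192, interval -1.55 to -0.74, limma adjusted p = 0.00151). The brightest probe read 7.34 and 7.38, below both control arrays, with a log2 difference of -0.44 that missed the threshold (SE 0.123, interval -0.70 to -0.19, limma adjusted p = 0.0733). The probe ILMN_1663618 read 5.95 and 5.67, again below both control arrays, with a log2 difference of -0.45 (SE 0.169, interval -0.80 to -0.09, limma adjusted p = 0.263). The 3 probes shared a direction, and whether their sizes differ was not tested.

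The STAT3 call by ILMN_2410986 held without any 1 array (limma adjusted p 0.00171 to 0.0262), and was lost where the spread was estimated without an intensity trend (0.138) or probe by probe (0.140). Its size depended on the background correction, with log2 differences of -0.75 for neqc, -0.42 for normexp and -0.31 for none, all of them called. With no background correction the brightest probe gave -0.28 and ILMN_1663618 gave -0.16, neither called. The brightest probe passed without SH-SY5Y control replicate 1 (log2 difference -0.59, limma adjusted p = 0.0252) and with neqc background correction (-0.40, 0.0458), and the mean of the 3 probes gave -0.68 (0.0184). The study had itself selected STAT3 from these SH-SY5Y arrays, so its direction there is not independent evidence. Which transcripts of STAT3 each probe reads was not analysed here. Some markers of both cell types were also called lower in SH-SY5Y TRPM7 shRNA cells. The study had itself named SNAI2 (mesenchymal, 7.23 to 4.46) and DBH (noradrenergic, 12.62 to 11.43) as lower there from these same arrays. Of the 23 mesenchymal marker probes 4 were called lower and 0 higher, where 1.3% and 0.807% of all probes were. The median of the 12 genes, which like STAT3 was higher in SH-EP2 cells, went from 4.95 to 4.04. Of these genes 4 were undetected in control and 5 in TRPM7 shRNA cells. Their summed linear level went from 14940 to 12651 and rests mostly on VIM, which was not higher in SH-EP2 control cells (13.48 against 13.68). VIM read 13.38 in SH-SY5Y TRPM7 shRNA cells, while COL3A1, among others, rose there (10.40 to 10.70). Of the noradrenergic markers 4 of 16 probes were called lower and 0 higher, beside the same shares of all probes. Their sum went from 38000 to 27669, with 1 undetected in both groups. The noradrenergic median did not fall (11.03 in control and 11.05 in TRPM7 shRNA cells). The part of these markers in the STAT3 result was not tested.

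In SH-EP2 cells no STAT3 probe was called after TRPM7 shRNA. The brightest probe read 9.24 and 9.16, ILMN_1663618 read 7.69 and 7.98, and ILMN_2410986 read 7.12 and 7.10. The log2 differences were -0.08, -0.08 and -0.34, with intervals of -0.34 to 0.17, -0.44 to 0.27 and -0.75 to 0.06. The test of the difference between the lines was not passed for any STAT3 probe: it was 0.80 for ILMN_2410986 (SE 0.272, unadjusted p = 0.00829, limma adjusted p = 0.223), 0.36 for the brightest (adjusted p = 0.494) and 0.36 for ILMN_1663618 (adjusted p = 0.665). A larger decrease in SH-SY5Y than in SH-EP2 cells was therefore not established.

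**Figure D1:**
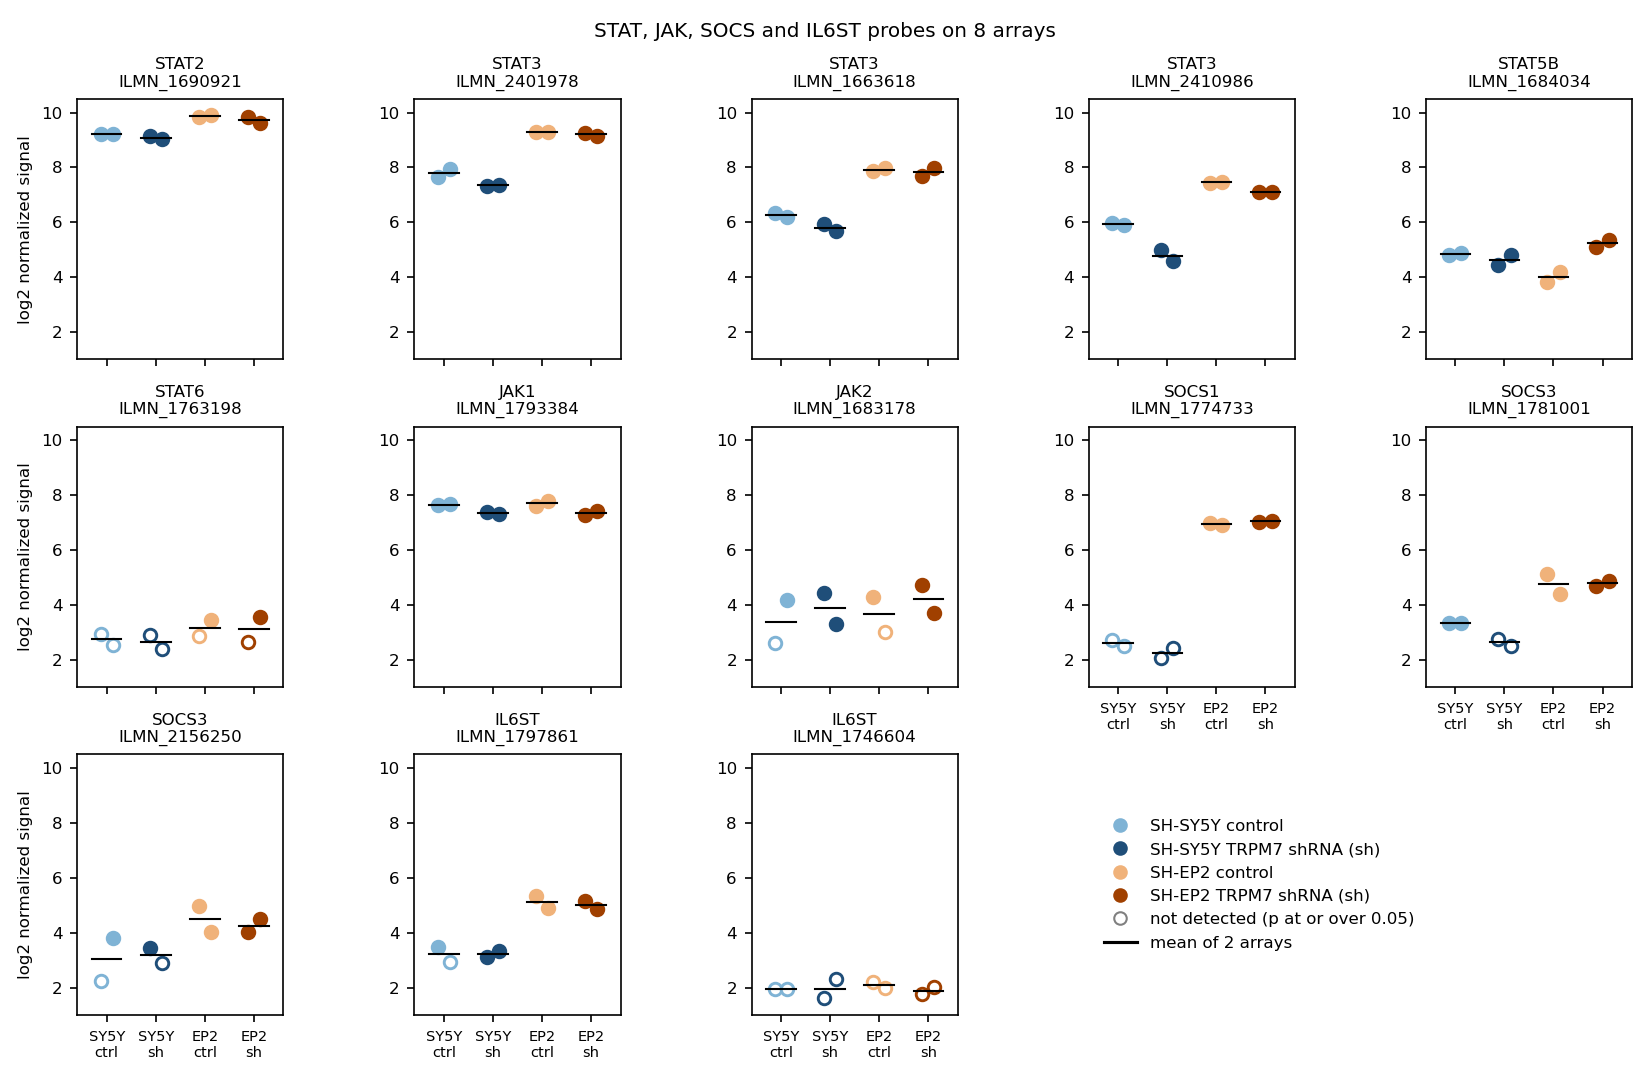
Each panel plots 1 probe, with the log2 normalized signal on the vertical axis and the 4 groups on the horizontal axis. Points are arrays, open where the probe was not detected, and bars are means of 2 arrays. All 3 STAT3 probes and SOCS1 sit higher on the SH-EP2 arrays, and the STAT3 probes step down from SH-SY5Y control to TRPM7 shRNA cells.

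STAT2, a transcription factor of the response to type I interferon, was 1.55-fold higher in SH-EP2 than in SH-SY5Y control cells (log2 difference 0.63, interval 0.42 to 0.85, limma adjusted p = 4.47e-05). The values were 9.83 and 9.90 against 9.23 and 9.23. TRPM7 shRNA cells read 9.84 and 9.63 in SH-EP2 and 9.15 and 9.04 in SH-SY5Y, and neither difference (-0.13 and -0.14) was called, with intervals that reach down to -0.34 and -0.35.

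STAT5B, which transmits growth hormone and cytokine signals, was the member that rose after TRPM7 shRNA in SH-EP2 cells. It read 5.10 and 5.35 there against 3.82 and 4.18 in control cells, a 2.35-fold increase (log2 difference 1.23, SE 0.305, interval 0.59 to 1.87, limma adjusted p = 0.0295). STAT5B read 4.81 and 4.89 in SH-SY5Y control and 4.46 and 4.81 in SH-SY5Y TRPM7 shRNA cells, with a log2 difference of -0.22 (interval -0.86 to 0.42). The difference between the lines was 1.45 (SE 0.431, unadjusted p = 0.0033, limma adjusted p = 0.133), so that a different response was not established. In control cells STAT5B was lower in SH-EP2 than in SH-SY5Y, by 1.81-fold (log2 difference -0.85, limma adjusted p = 0.0447), and was the only member probe with that direction called.

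Both STAT5B calls lay near the threshold. The increase in SH-EP2 cells was not called without SH-EP2 control replicate 1 or 2 (limma adjusted p = 0.209 and 0.0672), without SH-EP2 TRPM7 shRNA replicate 1 or 2 (0.111 and 0.255), or under any of the 3 other background corrections (0.067 to 0.0754), where the log2 difference fell to between 0.23 and 0.67. Of the 23 mesenchymal marker probes 1 was called higher and 5 lower in SH-EP2 TRPM7 shRNA cells, where 1.48% and 1.54% of all probes were. No gene of that list was undetected, and the study had itself named its SNAI2 as lower in these cells from the same arrays. The part of these markers in the STAT5B result was not tested. The difference between control lines passed without 1 of the 8 arrays (SH-EP2 control replicate 2) and missed the threshold without each of the 7 others (adjusted p up to 0.229), and it was lost under each of the 3 other background corrections (log2 difference -0.44 with neqc, -0.21 with normexp and -0.14 with none).

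STAT6, which serves interleukin-4 and interleukin-13, was at the limit of detection. Of its 8 values, 3.45 in SH-EP2 control and 3.58 in SH-EP2 TRPM7 shRNA cells were detected, and the 6 others lay between 2.39 and 2.96. No difference was called for it, and no fold is given against the SH-SY5Y cells, where it was not detected.

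SOCS1, which blocks JAK catalytic activity, separated the lines furthest. It was detected on the 4 SH-EP2 arrays, at 6.97 and 6.91 in control and 7.04 and 7.05 in TRPM7 shRNA cells, and on none of the 4 SH-SY5Y arrays, where values ran from 2.06 to 2.71. SOCS1 was at least 13.8-fold higher in SH-EP2 than in SH-SY5Y control cells, with the SH-SY5Y level set to the lowest detected signal (limma adjusted p = 3.08e-10). The call held under every alternative that was run, while the fitted log2 difference of 4.33 fell to 2.58 with neqc, 1.45 with normexp and 1.05 with no background correction. With TRPM7 shRNA in SH-EP2 cells the log2 difference was 0.10 (interval -0.51 to 0.72), and in SH-SY5Y cells no fold can be given.

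SOCS3, the feedback inhibitor that binds gp130 and a widely used readout of STAT3 activity, was also higher in SH-EP2 cells. Its probe ILMN_1781001 read 5.13 and 4.38 in SH-EP2 control and 3.34 and 3.35 in SH-SY5Y control cells, 2.66-fold (log2 difference 1.41, limma adjusted p = 0.0113). Its probe ILMN_2156250 read 4.97 and 4.03 against 2.24 (not detected) and 3.81, 2.78-fold (1.48, adjusted p = 0.0384). The first probe lost the call without SH-EP2 control replicate 1 (1.05, adjusted p = 0.176), as did the second (1.01, adjusted p = 0.336), which also lost it without SH-SY5Y control replicate 1 (0.68, adjusted p = 0.435), with neqc (0.68, 0.0716), without the intensity trend (0.136) and probe by probe (0.279). With no background correction the probes of SOCS3 gave line differences of 0.21 each, both called. After TRPM7 shRNA, ILMN_1781001 was undetected in SH-SY5Y cells (2.77 and 2.51), at least 1.25-fold below control, which was not called (limma adjusted p = 0.561), and ILMN_2156250 read 3.45 and 2.90, overlapping its control. In SH-EP2 TRPM7 shRNA cells the probes read 4.69 and 4.88, and 4.01 and 4.49, within the span of their control arrays but for the lower value of the second probe.

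**Figure D2:**
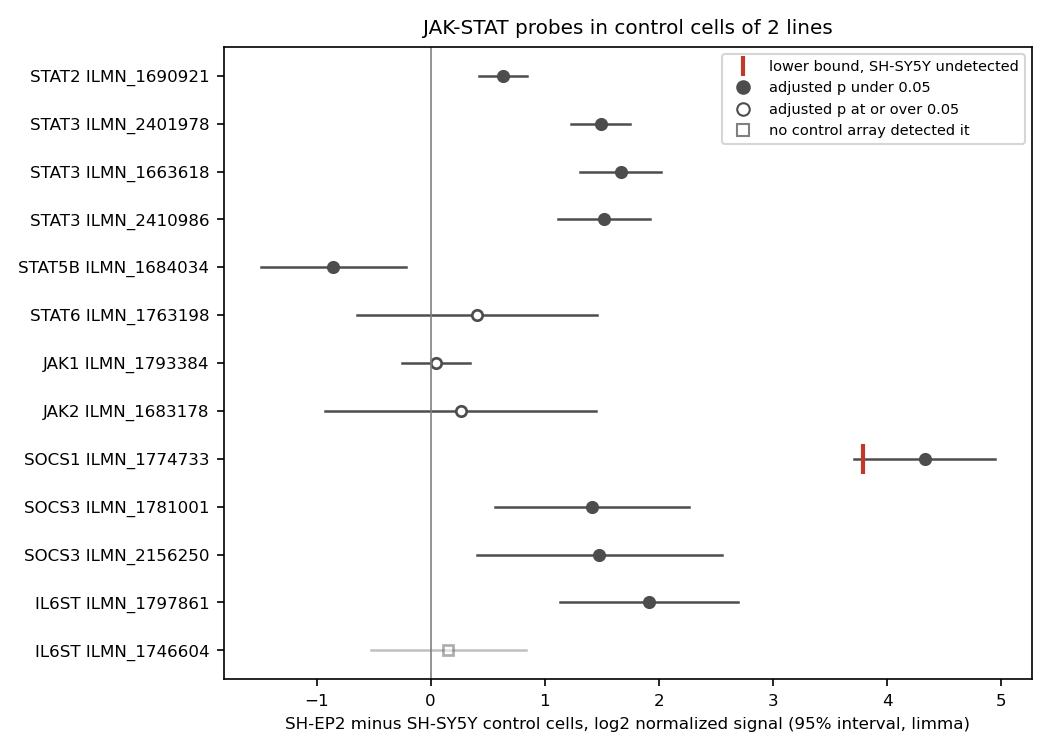
Points give the SH-EP2 minus SH-SY5Y difference between control cells per probe on the log2 scale, with 95% intervals from limma, filled where the adjusted p is under 0.05. Filled points of STAT2, 3 STAT3 probes, SOCS1, 2 SOCS3 probes and 1 IL6ST probe lie to the right of 0, and that of STAT5B lies to the left. The open points (JAK1, JAK2, STAT6 and the other IL6ST probe) also lie to the right. The red tick marks the lower bound for SOCS1, which SH-SY5Y cells did not show above background.

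Counted together, 9 of the 13 probes were called between the control lines, 8 higher and 1 lower in SH-EP2 cells, with a median log2 difference of 1.41. Over all probes 26.2% were called in that comparison (12.2% higher and 14% lower), and 48.1% of the probes that any of the 4 control arrays detected. The median over all probes was -0.02. Of the members, 12 probes were detected on at least 1 control array. The control arrays of this comparison are also those that the TRPM7 shRNA arrays were set against, so the comparisons are not independent of each other.

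After TRPM7 shRNA, 1 of 13 probes was called in SH-SY5Y cells (STAT3, lower), where 2.11% of all probes were called (0.807% higher, 1.3% lower, and 3.95% of those detected on any SH-SY5Y array). In SH-EP2 cells 1 of 13 was called (STAT5B, higher), where 3.02% of all probes were (1.48% higher, 1.54% lower, and 5.93% of those detected on any SH-EP2 array). A count of 1 in 13 is too small to set apart from either background. At an unadjusted p under 0.05, 4 of the 13 passed in SH-SY5Y cells (all STAT3 probes and JAK1), as did 5390 of all 47322 probes. In SH-EP2 cells 2 of the 13 passed (JAK1 and STAT5B), as did 5940 of all 47322 probes. These counts were not tested against those of all probes. The difference between lines was called for 0 of the 13, against 1.4% of all probes. At an unadjusted p under 0.05 it passed for 2 of the 13 and for 4879 of all 47322 probes.

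The arrays of SH-SY5Y TRPM7 shRNA cells lay entirely below those of control cells for 8 member probes and entirely above them for 0. These 8 included all 3 STAT3 probes, and 7 of them were among the 10 member probes detected on an SH-SY5Y array. Over all probes 19.2% lay below and 20% above, and the share among detected probes alone was not computed. In SH-EP2 cells 3 member probes lay below and 2 above, where 20.8% and 22.1% of all probes did. The median log2 difference over the members was -0.22 in SH-SY5Y and -0.08 in SH-EP2 cells, beside 0.00 and 0.01 over all probes. With median scaling in place of quantile normalization, SH-SY5Y differences of probes detected on all arrays shifted up by a median of 0.158, which for STAT3 left log2 differences of -0.97, -0.27 and -0.27 by ILMN_2410986, the brightest probe and ILMN_1663618.

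**Figure D3:**
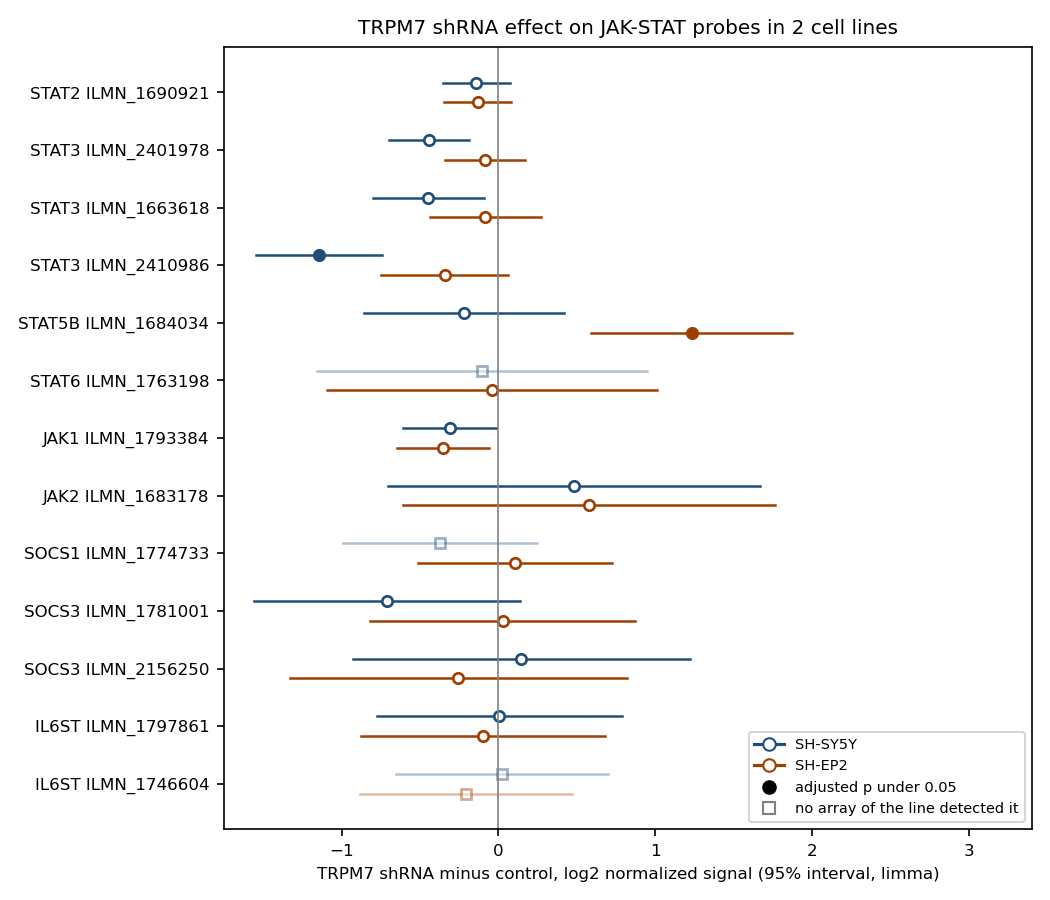
Points give the TRPM7 shRNA minus control difference per probe on the log2 scale, blue for SH-SY5Y and orange for SH-EP2 cells, with 95% intervals from limma. Filled points mark an adjusted p under 0.05: STAT3 ILMN_2410986 in SH-SY5Y cells (-1.14) and STAT5B in SH-EP2 cells (1.23).

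The 5 probes whose pattern over the 8 arrays was most like that of the brightest STAT3 probe were, by the table's symbols, CCDC99, C5orf15, CTSL1, AYP1p1 and HRASLS3. The root mean square difference of their centred log2 values from those of STAT3 lay between 0.0759 and 0.106, among 14285 probes with a symbol that were detected on all arrays. Because the 5 were picked for likeness over the same arrays, what they share with STAT3 follows from the selection. Their log2 differences between control cells were 1.37 to 1.66, and all lay lower after TRPM7 shRNA in SH-SY5Y cells by 0.22 to 0.54. The other STAT3 probes came at ranks 102 and 672, so that probes of many other genes were closer to the brightest STAT3 probe than the other probes of its own gene.

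Beyond the members, 67 genes of the pathway with 111 probes were listed in 5 groups: ligands of gp130, its co-receptors, other receptors that use JAKs, other JAKs and STATs, and other inhibitors. In SH-SY5Y cells 2 of the 111 probes (1.80%) were called after TRPM7 shRNA, 0 higher and 2 lower, close to the 2.11% of all probes. In SH-EP2 cells 6 (5.41%) were called, 3 higher and 3 lower, beside 3.02% of all probes. Between the control lines 46 (41.4%) were called, 27 higher and 19 lower in SH-EP2 cells, beside 26.2% of all probes.

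Among the 11 ligands EBI3, the chain that pairs with IL-27 p28, was the 1 called, in SH-EP2 cells. It was undetected there in control cells (2.47 and 1.97) and read 6.10 and 6.07 after TRPM7 shRNA, at least 7.24-fold higher (limma adjusted p = 4.1e-05), a call kept without any 1 array. It was undetected in SH-SY5Y cells. Over the alternative settings that keep all arrays, the fitted EBI3 log2 difference in SH-EP2 cells fell from 3.87 to as little as 0.73. It stayed called in each of these, but the bound holds for the main processing only. IL6, the family's founding cytokine, read 6.37 and 6.80 in SH-EP2 control and 7.57 and 7.69 in TRPM7 shRNA cells, which was not called (log2 difference 1.04, limma adjusted p = 0.0971), and it was undetected in SH-SY5Y cells.

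Of 12 probes of 7 co-receptors, 2 were called in SH-EP2 cells and 0 in SH-SY5Y cells. In SH-SY5Y cells 2 of the 12 passed at an unadjusted p under 0.05, as did 5390 of all 47322 probes. IL11RA, the interleukin-11 receptor, went from 10.01 and 10.06 to 9.57 and 9.62 (log2 difference -0.44, limma adjusted p = 0.0112). IL27RA, which pairs with gp130 to bind IL-27, went from 8.86 and 8.97 to 9.55 and 9.50 (0.61, adjusted p = 0.0352). Both calls were lost on leaving out any 1 of the 4 SH-EP2 arrays.

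Of 55 probes of 30 other receptors, 1 was called in each line. The interferon gamma receptor chain IFNGR2 fell in SH-SY5Y cells, from 10.63 and 10.68 to 10.30 and 10.36 (log2 difference -0.33, limma adjusted p = 0.0343). The leptin receptor LEPR fell in SH-EP2 cells, from 7.90 and 7.92 to 7.30 and 7.33 by its brightest probe ILMN_2234956 (-0.60, adjusted p = 0.00816), and read 8.85 and 8.60 in SH-SY5Y control and 9.07 and 9.20 in SH-SY5Y TRPM7 shRNA cells. The other LEPR probes were not called in SH-EP2 cells, and 1 of them (ILMN_1676265) lay higher there after TRPM7 shRNA (log2 difference 0.55). The IFNGR2 and LEPR calls were lost on leaving out any 1 of the 4 arrays of their line, and that of IFNGR2 also without SH-EP2 TRPM7 shRNA replicate 1 (0.0653) or 2 (0.0677).

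Of 4 probes of 4 other JAKs and STATs, STAT4, which serves interleukin-12, was called in SH-EP2 cells. It went from 3.33 and 4.40 to 5.53 and 5.55 (log2 difference 1.67, limma adjusted p = 0.0359), and without SH-EP2 control replicate 1 the difference was 1.14 (adjusted p = 0.357). The call was also lost without SH-EP2 TRPM7 shRNA replicate 1 (0.213) or 2 (0.218). The probe of TYK2, the kinase of interferon and interleukin-12 receptors, was detected in all groups and not called in either line.

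Of 29 probes of 15 other inhibitors, 1 was called in each line. PIAS2, of a family of SUMO ligases that restrain STATs, went in SH-SY5Y cells from 7.79 and 7.57 to 6.72 and 7.12 by ILMN_1694799 (log2 difference -0.76, limma adjusted p = 0.0131), a call lost without SH-SY5Y control replicate 1 (0.111) or SH-SY5Y TRPM7 shRNA replicate 1 (0.192). SOCS2, the feedback inhibitor of growth hormone signalling, went in SH-EP2 cells from 7.85 and 7.66 to 7.24 and 7.11 by ILMN_1798926 (-0.58, adjusted p = 0.0197), while its brighter probe ILMN_2131861 was not called (-0.21, adjusted p = 0.351), and the call was lost on leaving out any 1 of the 4 SH-EP2 arrays.

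A list of 32 genes known as STAT3 targets had 45 probes. In SH-SY5Y cells, where STAT3 was lower by ILMN_2410986, 4 of them (8.89%) were called, 1 higher and 3 lower, where 2.11% of all probes were, and 28 were detected on any array. The median log2 difference over the 45 probes was -0.08, beside 0.00 over all probes. In SH-EP2 cells 10 (22.2%) were called, 4 higher and 6 lower, where 3.02% of all probes were, with 33 detected and a median of 0.06 beside 0.01. HIF1A alone gave 3 of the 10 calls in SH-EP2 cells. The study had itself named HIF1A and TWIST1 as lower in these cells from the same arrays, so their calls are not independent evidence. Neither list share was tested against that of all probes.

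The called target with the widest change in SH-SY5Y cells was CEBPD, a transcription factor of the acute phase response, which rose. It read 3.31 and 2.79 in control cells, with the second value undetected, and 4.61 and 4.74 after TRPM7 shRNA (log2 difference 1.63, SE 0.212, limma adjusted p = 9.59e-05), and the call held without any 1 array but not with no background correction (0.23, adjusted p = 0.12). The 3 that fell were VEGFA, the endothelial growth factor (5.06 and 6.23 to 4.54 and 4.42, -1.16, adjusted p = 0.0295), the apoptosis inhibitor BIRC5 (10.10 and 10.17 to 9.76 and 9.77, -0.37, adjusted p = 0.0317) and CCND1, cyclin D1 (12.97 and 13.01 to 12.63 and 12.62, -0.36, adjusted p = 0.0303). The dimmer BIRC5 probe ILMN_1803124 overlapped between groups (6.85 and 6.63 against 6.31 and 6.77) and was not called. Nor was the VEGFA probe ILMN_1803882, undetected in control cells (2.32 and 3.08) and at 3.87 and 2.58 after TRPM7 shRNA. Without SH-SY5Y control replicate 2 VEGFA kept a log2 difference of -0.58 (adjusted p = 0.409), and its call was also lost without SH-SY5Y TRPM7 shRNA replicate 1 (0.110) or 2 (0.165) and without SH-EP2 control replicate 1 (0.0508) or 2 (0.0512). The CCND1 decrease lost its call on leaving out any 1 of the 4 SH-SY5Y arrays (adjusted p 0.0867 to 0.173), and that of BIRC5 on leaving out any 1 of the 8 arrays (0.0562 to 0.164).

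In SH-EP2 cells the called targets ran in both directions. The protease inhibitor SERPINA3 rose from 7.81 and 7.48 to 9.40 and 9.37 (log2 difference 1.74, SE 0.267, limma adjusted p = 4.83e-04), and the protease MMP9 from 4.94 and 4.48 to 6.73 and 6.80 (2.06, adjusted p = 0.00476). The scavenger of proteases A2M fell from 5.05 and 4.47 to undetected values of 2.26 and 1.52, at least 3.0-fold (adjusted p = 8.04e-04). These are all secreted proteins. Over the alternative settings that keep all arrays, the fitted A2M log2 difference of -2.87 shrank to as little as -0.43. Of these 11 settings 1 lost the A2M call, and the bound holds for the main processing only. CCND1 rose from 10.02 and 10.33 to 10.64 and 10.76 (0.52, adjusted p = 0.00117), and MYC from 6.52 and 6.50 to 6.88 and 7.12 by its brighter probe (0.49, adjusted p = 0.0441). The MYC call was lost without each array except the SH-SY5Y controls, with adjusted p up to 0.409.

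HIF1A, the oxygen-sensing transcription factor, fell in SH-EP2 cells by all 3 of its probes, by 0.69, 0.71 and 0.73 on the log2 scale (limma adjusted p = 0.0112, 0.0187 and 0.00174). TIMP1 and TWIST1 also fell (log2 difference -0.43 and -0.37, adjusted p = 0.00148 and 0.0117) and are outside the naming rule, being named after their values were seen. Of the HIF1A probes, ILMN_2379788 and ILMN_1681283 lost the call on leaving out any 1 of the 4 SH-EP2 arrays, and ILMN_1763260 without SH-EP2 control replicate 2 (0.0607) or TRPM7 shRNA replicate 1 (0.0527). The calls of A2M, SERPINA3, CCND1 and TIMP1 held without any 1 array. That of TWIST1 was lost without SH-EP2 control replicate 1 (0.105) or 2 (0.102) and without SH-EP2 TRPM7 shRNA replicate 2 (0.183). That of MMP9 was lost without SH-EP2 control replicate 2 (log2 difference 1.82, adjusted p = 0.105), and without SH-EP2 TRPM7 shRNA replicate 1 (0.0815) or 2 (0.102).

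**Figure D4:**
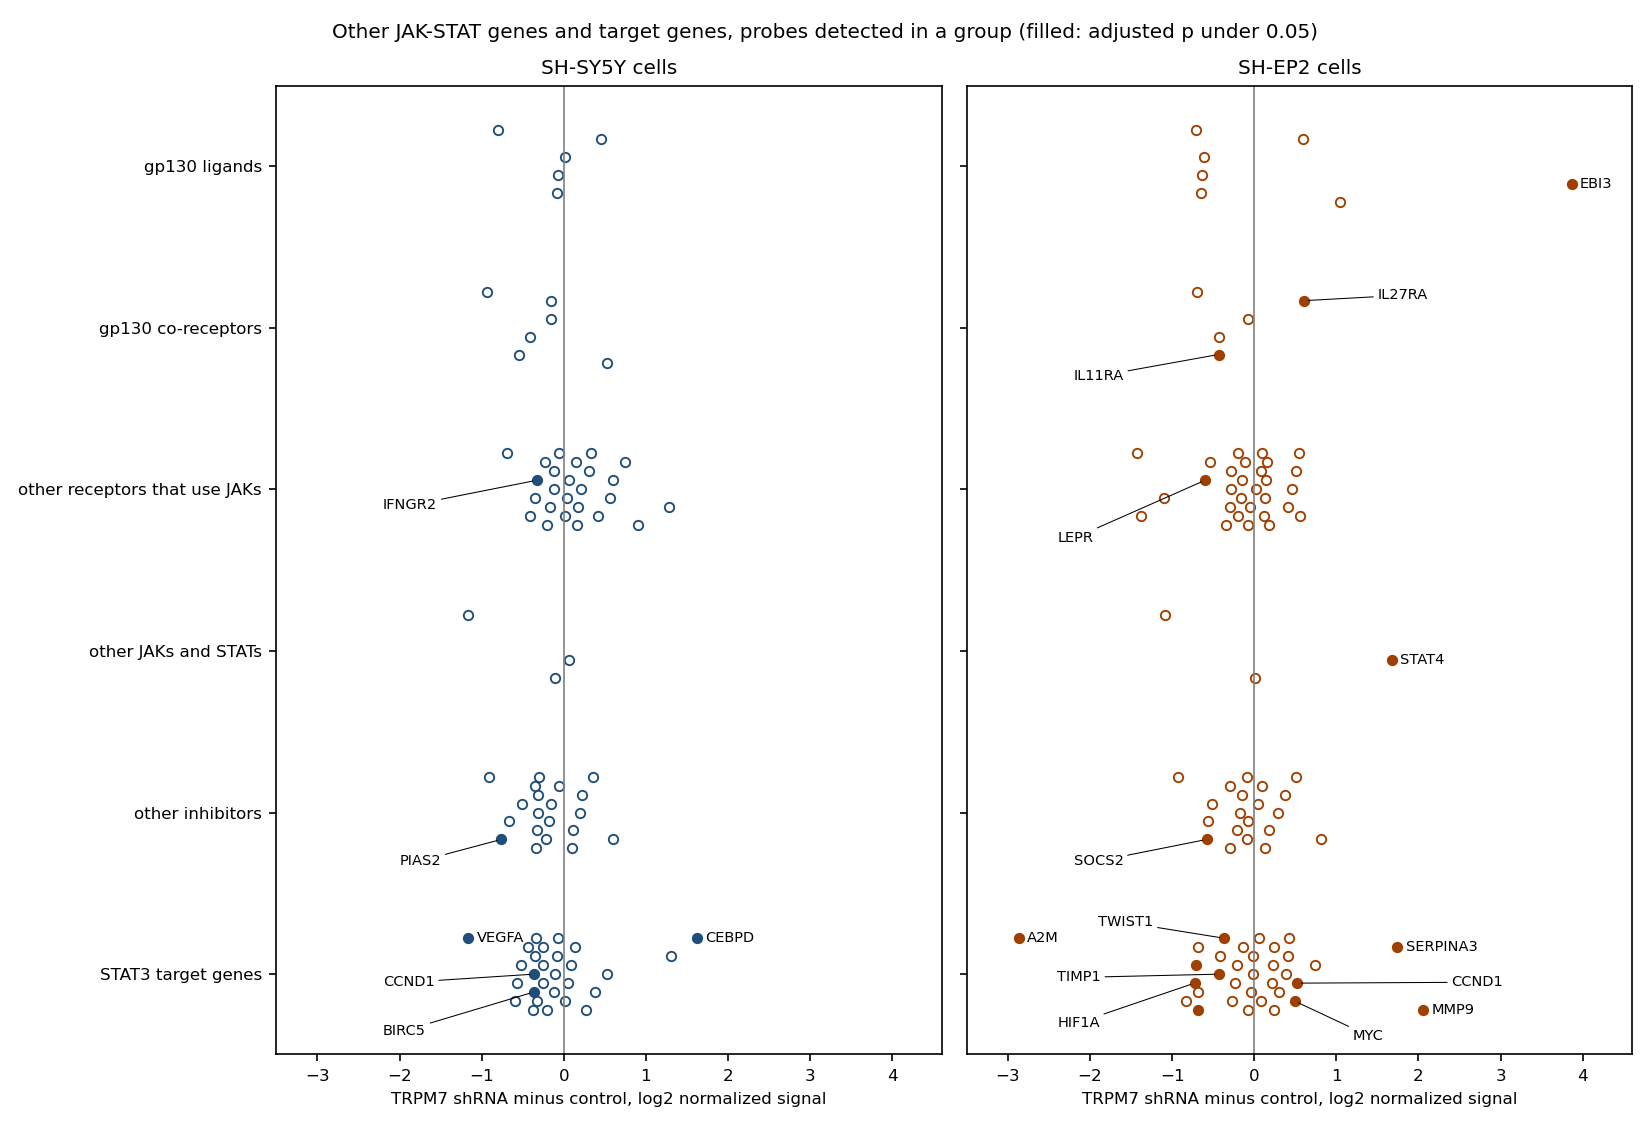
Each point is a probe of a list of other JAK-STAT genes or target genes that was detected in control or TRPM7 shRNA cells of the line, with the TRPM7 shRNA minus control difference on the log2 scale on the horizontal axis and the lists on the vertical axis. Filled points mark an adjusted p under 0.05 and carry the gene's symbol (HIF1A once for its 3 probes), and for EBI3 and A2M, undetected in 1 group, the fitted value is plotted where the text gives a bound.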

How the data were processed

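RNA of SH-SY5Y and SH-EP2 cells was measured on 8 arrays, which were grouped by the cell line and shRNA in their labels. The authors deposited non-normalized bead intensities on a linear scale with a detection p-value per probe, and the submitters' processing notes name GenomeStudio 2011.1. The methods state Robust-Multi-Array normalization and name no test for the arrays. Here the intensities were background corrected with the RMA model, quantile normalized over the 8 arrays, taken to log2 and fitted, unfiltered, by limma 3.58.1 (R 4.3.3) with 1 mean per group and moderated variances that follow the signal level. TRPM7 shRNA cells were set against control cells of their line, the 2 effects against each other, and the control cells of SH-EP2 against those of SH-SY5Y. Tests were two-sided, and p-values were adjusted by Benjamini-Hochberg across the 47322 probes. For a probe undetected on both arrays of a group, an "at least" fold was computed against a floor per array, the dimmest detected probe there or the undetected probe itself if that was brighter. The number of arrays limits the precision.

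The member genes and the lists were chosen with earlier results of these data known, and no list was tested as a set. Some pathway genes are not reported here. Every member probe is named. In each other list the genes with a called probe after TRPM7 shRNA are named, at most 6 per list and line by the size of the change, by the brightest probe unless stated. In simulated arrays with 200 of 47322 probes changed by a log2 of 2, 171 (SH-SY5Y) and 167 (SH-EP2) were recovered, with 16 and 12 false calls. Smaller changes, such as those of the member calls (-1.14 for STAT3 and 1.23 for STAT5B), were not simulated. Same-numbered replicates did not deviate together (correlation of deviations over 14577 probes -0.00447 for SH-EP2 and -0.111 for SH-SY5Y), and no block was used. Promoter windows of all 9 members were found in RefSeq (GRCh38.p14). Alternatives were neqc (offset 16), normexp (offset 50) and no background correction, scaling to equal medians, a filter that keeps probes with 2 or more detected arrays, moderation without the trend, a per-probe test, each line alone, the replicate block, a crossed block (chosen after seeing the data), the mean over a gene's probes, and leaving out each array. Leaving out an array makes the lone array of that group borrow its spread from the 3 intact groups.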

Additional observations from a re-analysis of the deposited data

Results flagged for a closer look

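For 8 probes of the pathway and target lists that were called after TRPM7 shRNA in a line, the effect of TRPM7 shRNA differed between the lines by the test of the difference itself (limma interaction, SH-EP2 effect minus SH-SY5Y effect, Benjamini-Hochberg over all probes). For no member probe was that test passed. EBI3 had a difference of 3.77 on the log2 scale (adjusted p = 0.00331), CEBPD of -1.67 (adjusted p = 0.00391), LEPR of -1.01 (adjusted p = 0.00289) and CCND1 of 0.89 (adjusted p = 3.32e-04), and these 4 passed without any 1 of the 8 arrays. CCND1 was called in both lines, lower in SH-SY5Y and higher in SH-EP2 cells.

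A2M had a difference of -2.77 (adjusted p = 0.0369), SERPINA3 of 1.80 (adjusted p = 0.0152), MYC of 0.75 (adjusted p = 0.0484) and TWIST1 of -0.50 (adjusted p = 0.0256), and these held less well: A2M, MYC and TWIST1 each lost the call in 7 of the 8 fits that leave out an array, and SERPINA3 in 4. EBI3, A2M and SERPINA3 were undetected on the SH-SY5Y arrays, so these differences rest in part on signals at background and are no measure of size. With the spread estimated without an intensity trend, 7 of the 8 missed the threshold, and 8 of 8 in a per-probe test.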

How the results depend on the processing

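Of the 13 member probes, 1 was called in SH-SY5Y cells as reported, 2 with neqc, with only probes detected on at least 2 arrays and with the crossed block, 0 without the trend and in the per-probe test, and 1 to 2 without 1 array. In SH-EP2 cells 1 was called as reported, 0 with neqc, normexp, no background correction, median scaling, no trend and the per-probe test, and 0 to 1 without 1 array. Between the control lines 9 were called, 5 genes with the mean over probes and 6 to 9 without 1 array. Of the 111 pathway probes 2 were called in SH-SY5Y cells, 4 with normexp, no background correction, detected probes only and the crossed block, 1 with each line alone, the replicate block and the mean over probes, 0 with median scaling, no trend and the per-probe test, and 0 to 4 without 1 array. In SH-EP2 cells 6 were called, 10 with normexp and with no background correction, 13 with each line alone, 3 with median scaling, 2 with the mean over probes, 1 with no trend and in the per-probe test, and 1 to 7 without 1 array. Of the 45 STAT3 target probes 4 were called in SH-SY5Y cells, 6 with detected probes only, 2 with each line alone, 1 with median scaling and the mean over probes, 0 with no trend and the per-probe test, and 1 to 3 without 1 array. In SH-EP2 cells 10 were called, 12 with no background correction, 2 with no trend, 0 in the per-probe test and 4 to 10 without 1 array. The cause of these shifts was not tested.

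The replicate block left 1 member probe called in each line. The log2 difference of STAT3 ILMN_2410986 in SH-SY5Y cells was -1.14 with it (adjusted p = 0.00365) and that of STAT5B in SH-EP2 cells 1.23 (0.0471), while the STAT5B difference between control lines was no longer called (-0.85, 0.0564). The crossed block, chosen after seeing the data, called 2 member probes in SH-SY5Y cells.

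No called member value changed sign. Values near 0 that did were SOCS3 ILMN_1781001 in SH-EP2 cells (-0.0012 with normexp, -0.0016 with no background correction, -0.11 as a gene mean, -0.35 to 0.40 without 1 array), IL6ST ILMN_1797861 in SH-SY5Y cells (-0.0028 with median scaling, -0.28 to 0.29 without 1 array) and SH-EP2 cells (-0.32 to 0.13), and JAK1 between control lines (-0.0015 with median scaling, -0.0380 to 0.13 without 1 array). Without 1 array, JAK2 ranged from -0.51 to 1.05 between control lines, -0.0507 to 1.21 in SH-EP2 and -0.29 to 1.27 in SH-SY5Y cells, SOCS3 ILMN_2156250 from -0.73 to 0.22 in SH-EP2 and -0.63 to 0.94 in SH-SY5Y cells, STAT6 from -0.50 to 0.42 in SH-EP2 cells, and STAT3 ILMN_1663618 from -0.23 to 0.0589 in SH-EP2 cells.

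Of 22 calls after TRPM7 shRNA in the other lists, 6 held without each array in turn and 1 under every other alternative, and 19 were lost without a trend. Signals near background limit JAK2, STAT6, SOCS3, IL6ST and STAT5B, and the called STAT3 probe ILMN_2410986 in SH-SY5Y cells. Raw STAT5B signals were 129.7 and 128.3 in SH-EP2 control and 150.5 and 155.3 in TRPM7 shRNA cells. The estimated background there was 106.7 to 111.1. Raw ILMN_2410986 signals were 179.7 and 150.8 in SH-SY5Y control and 150.2 and 144.5 in TRPM7 shRNA cells. The estimated background there was 98.3 to 110.3. The chip as a block was not run, because the table names no chips.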
